A study of Bos taurus with 16 samples.

Results

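Transcripts of 8 tubulin genes were followed in bovine oocytes and embryos developed in vivo: the alpha tubulins TUBA1A, TUBA1B, TUBA1C and TUBA4A, the beta tubulins TUBB2B, TUBB3 and TUBB6, and the gamma tubulin TUBG1. They were chosen by gene name, and TUBA1C was taken as the leading member because it held the most reads of all loci in 1 sample of the 8-cell stage. The 8 names correspond to 8 of the 27393 loci of the deposited data, 1 locus each, and to 8 of the 21 tubulin names found there. The reads of TUBA1C in 8-cell embryos are therefore a description, and no test is given for TUBA1C where the 8-cell samples are compared. Its contrasts between other stages come from a model of all 8 stages, so the 8-cell samples enter their estimate of the spread.

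Single oocytes and single embryos were sequenced, with 2 samples at each of 8 stages. The stages are mature oocytes (MII), embryos of 2, 4, 8 and 16 cells (2C to 16C), early morulae (EM), compact morulae (CM) and blastocysts (BL). The labels name no treatment, and all samples share development in vivo, 2 rounds of RNA amplification and SOLiD sequencing. The labels give neither breed nor whether samples of a stage came from separate animals, so p-values measure the spread between these samples only.

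Microtubules are hollow polymers of alpha and beta tubulin dimers, and their assembly is started by rings that contain gamma tubulin. They build the meiotic spindle of the oocyte and the mitotic spindles of each cleavage division, and mammals encode each tubulin in several genes whose proteins are very similar. An oocyte stores transcripts that are degraded after fertilisation, and the embryo begins its own transcription at embryonic genome activation (EGA), which the study places between the 4-cell and 8-cell stages in bovine embryos developed in vivo.

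Levels are given as normalised read counts, that is, reads of a locus divided by the size factor of the sample, as deposited. They are not divided by gene length, so an order of genes by these values is one of reads and not of transcript levels. Some values are also given after scaling by total reads (CPM, the reads of a locus per 1000000 reads of the sample). Between 607672 and 3379426 reads were recovered per sample, and 3 reads, the number taken as the detection floor, correspond to between 1.09 and 5.40 normalised reads. Replicates of every stage differed by more than sampling noise, with a chi-square per degree of freedom between 14.1 and 169. The summed normalised reads of 10 oocyte markers lay between 4041 and 25570.2 before EGA (MII, 2C and 4C, 6 samples) and between 8.09 and 1746 after it (8C to BL, 10 samples). The highest value after EGA was that of 8C replicate 2, against 37.8 in 8C replicate 1. Up to the 8-cell stage most of the sum was H1FOO, the linker histone of oocytes, with 1606 in 8C replicate 2 and 30.6 in 8C replicate 1. Of these markers, BMP15 was listed at 0 in every sample. The 10 cumulus and granulosa markers summed to between 1260 and 2636 before EGA and between 414 and 1094 after it. Most of that sum was STAR, with means of 1698 and 685, and AMH was listed at 0 throughout. HAS2 held 98.1 to 367 before EGA and 0 to 21.8 after it, CYP19A1 had means of 21.3 and 3.98, and FSHR of 8.02 and 0. LHCGR of the same list went from a mean of 3.61 to 19.4, and TNFAIP6 and CYP11A1 were at 0 before EGA and had means of 0.839 and 0.723 after it. The part of such RNA in the falls of TUBA1A and TUBB3 was not tested. The 6 blood markers summed to at most 7.21. In whole embryos, fewer cells of a type and less RNA per cell cannot be told apart.

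Among the alpha tubulins, TUBA1A (XLOC_056628) had its highest mean in oocytes and its lowest in early morulae. The 2 MII oocytes held 27499 and 23045 normalised reads, the 2C embryos 21496 and 8295, and the 4C embryos 13572 and 14927. From genome activation on, the values were 6198 and 9642 at 8C, 7852 and 5609.9 at 16C, 2273 and 1521 at EM, 3378 and 4986 at CM, and 5498 and 2836 at BL. Of the 10 samples after EGA, 9 lay below every sample before it, and the exception was 8C replicate 2, which lay above 2C replicate 2.

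In order of their means, the stages ran MII, 2C, 4C, 8C, 16C, CM, BL and EM for TUBA1A. The neighbours 2C and 4C, 8C and 16C, and CM and BL overlapped in that order. The mean of MII oocytes, 25272 ± 3149 (SD, n = 2), was 13.3 times that of early morulae, 1897 ± 532 (SD, n = 2). In CPM this ratio was 4.98, and the 2C mean of 12404, with 18082 in replicate 1, exceeded the MII mean of 11348.

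TUBA1C (XLOC_057303) was lowest in oocytes and high from the 8-cell stage on. It held 643 and 492 normalised reads in MII oocytes, 1273 and 4508 at 2C, and 5635 and 5389 at 4C. After EGA the values were 45345 and 37000.4 at 8C, 39554 and 34466 at 16C, 14729 and 10800.1 at EM, 20984 and 58712 at CM, and 28189.9 and 13821 at BL. All 10 samples after EGA lay above all 6 samples before it. The CM embryos differed by the most normalised reads, and CM replicate 2 held the highest value of TUBA1C.

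By its means, TUBA1C was ordered 8C, CM, 16C, BL, EM, 4C, 2C and MII. The first 3 of these overlapped as neighbours, and so did BL and EM, whereas EM, 4C, 2C and MII were each apart from the next. The 8C mean of 41173 ± 5901 (SD, n = 2) was 7.47 times the 4C mean of 5512 ± 174 (SD, n = 2) and 72.5 times the MII mean of 568 ± 107 (SD, n = 2). These ratios describe the samples by which the gene was chosen. In CPM the ratios were 7.47 and 121, and the order of the first 3 stages turned to CM, 16C and 8C, with means of 32043, 31573 and 31087.

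In the ranking of all loci by reads, TUBA1C stood first in 8C replicate 2 with 3.10% of the reads and in CM replicate 2 with 4.47%. In 8C replicate 1 it was the second locus with 3.11%, behind ODC1, the gene for ornithine decarboxylase, with 3.25%. It was first or second in 7 samples, all after EGA. Its rank after EGA lay between 1 and 10, with 1.28% to 4.47% of the reads, and before EGA between 26 and 385, with 0.0203% to 0.424%.

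TUBA1B (XLOC_056629), an alpha tubulin expressed in many cell types, was lowest in oocytes and highest in blastocysts. In MII oocytes it had 0 reads and 1 read, and the 2C embryos held 11.1 and 20.1 and the 4C embryos 38.7 and 45.5 normalised reads. The values were 59.5 and 111 at 8C, 34.8 and 107 at 16C, 53.3 and 70.0 at EM, 60.9 and 76.0 at CM, and 116 and 90.3 at BL. In 9 of the 10 samples after EGA the level exceeded every sample before it, and 16C replicate 1 was the exception. From BL down through 8C, 16C, CM and EM all neighbours in the order of means overlapped, and 4C, 2C and MII followed without overlap. In CPM, EM came second in this order.

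TUBA4A (XLOC_030714) had 7 reads in all, in 3 samples and with at most 4 in any of them. Its level was not detectable at this depth in most samples, and the gene was too low to test. The RefSeq gene table (assembly ARS-UCD2.0) gives TUBA4A as an older synonym of TUBA1C, and in that assembly TUBA4A lies next to TUBA1D. In this assembly TUBA1A and TUBA1B have 1 annotated gene between them, with 1 between TUBA1A and TUBA1C, and 3 between TUBA1B and TUBA1C.

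**Figure D1:**
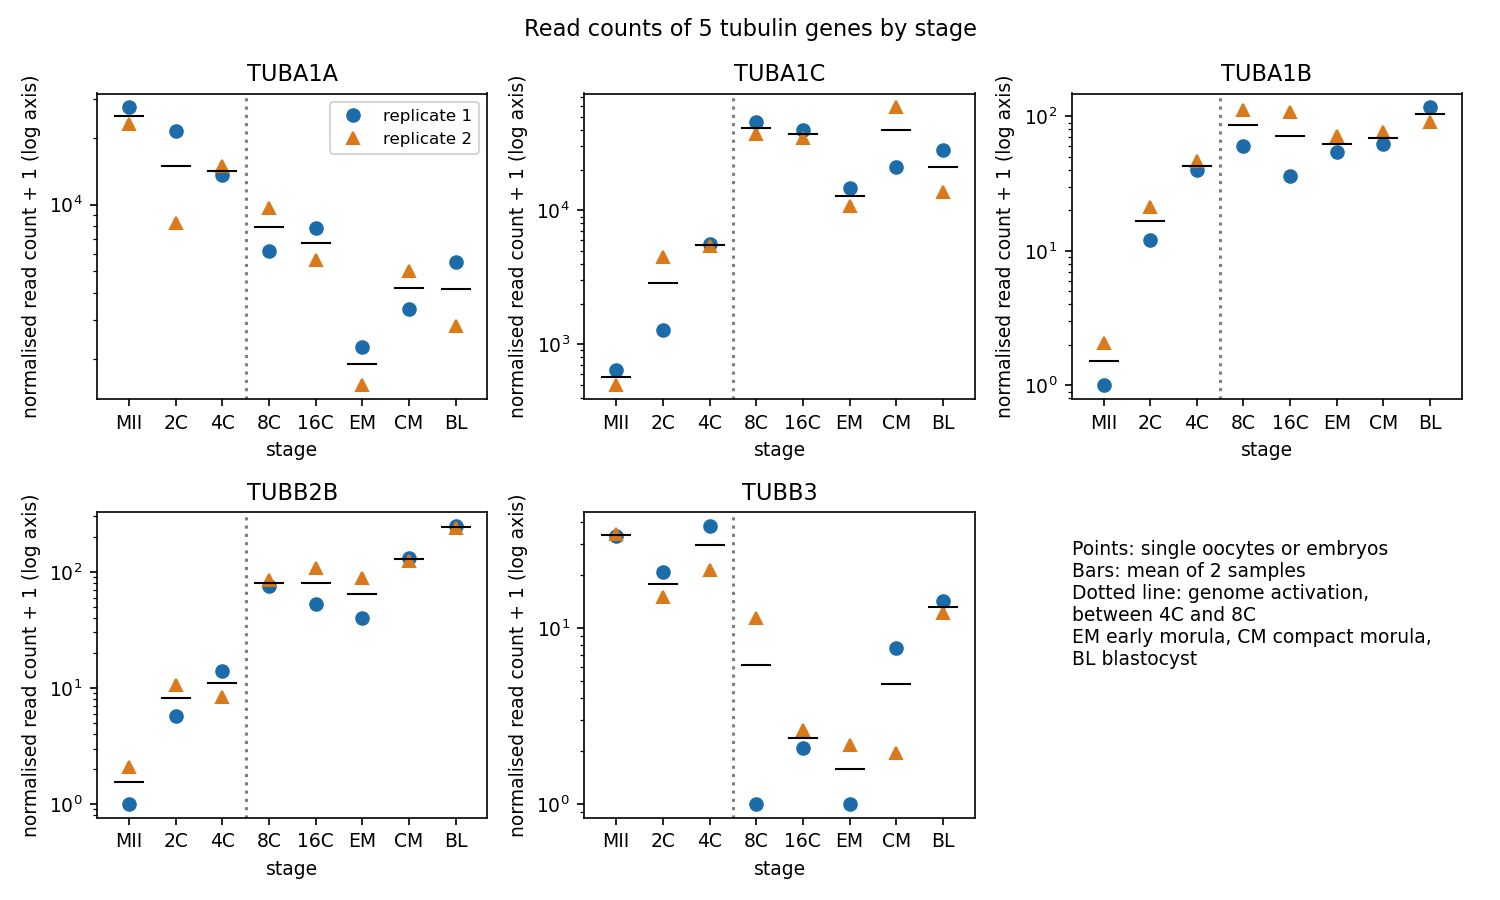
Normalised read counts (plus 1, log axis, a scale of its own for each gene) of TUBA1A, TUBA1C, TUBA1B, TUBB2B and TUBB3 in all 16 samples by stage, where points are single oocytes or embryos and bars are means of 2. TUBA1C rises from 643 and 492 in MII oocytes to 45345 and 37000.4 at the 8-cell stage, while TUBA1A falls from 27499 and 23045 to 6198 and 9642.

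Because the coding sequences of the alpha tubulins are very similar, reads may have been assigned to the wrong one of these loci. The rule for reads that match several places is not given in the sources used here. The sum over TUBA1A, TUBA1B and TUBA1C does not depend on how such reads were split among the 3. It was 28142 and 23539 normalised reads in MII oocytes, 22781 and 12823 at 2C, 19246 and 20361 at 4C, and 51602 and 46754 at 8C. At 16C it was 47441 and 40183, at EM 17055 and 12391, at CM 24423 and 63774, and at BL 33803 and 16747. At 8C and 16C the sum was thus above every sample before EGA, and at EM, CM and BL it overlapped them. As a share of all reads, both CM samples, with 2.26% and 4.85%, also lay above the highest share before EGA, 1.92%. Over the 6 samples before EGA the mean was 21149 ± 5116 (SD) and over the 10 after it 35417 ± 17325 (SD).

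The share of TUBA1C in these reads did not overlap between the periods. TUBA1C held 2.29% (exact Clopper-Pearson 95% interval 2.12% to 2.46%) and 2.09% (1.91% to 2.29%) of the reads of the 3 loci in MII oocytes. The 2C embryos differed, with 5.59% (5.33% to 5.86%) in replicate 1 and 35.2% (34.7% to 35.7%) in replicate 2, and the 4C embryos held 29.3% and 26.5%. From the 8-cell stage on the share lay between 79.1% in 8C replicate 2 and 92.1% in CM replicate 2. The highest share before EGA was the 35.2% of 2C replicate 2. TUBA1B held between 0% and 0.565% of the reads of the 3 loci. The part of misassigned reads of TUBA1A and TUBA1C in the values of TUBA1B was not tested.

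In other terms, TUBA1C had 0.0214 to 0.543 reads per read of TUBA1A before EGA and 3.84 to 11.8 after it. This is a ratio of reads on loci of unknown length and not one of molecules, and within a sample it does not depend on the size factor. Intervals and the detection floor cover only the error of counting, because copies made during amplification were counted as separate reads.

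**Figure D2:**
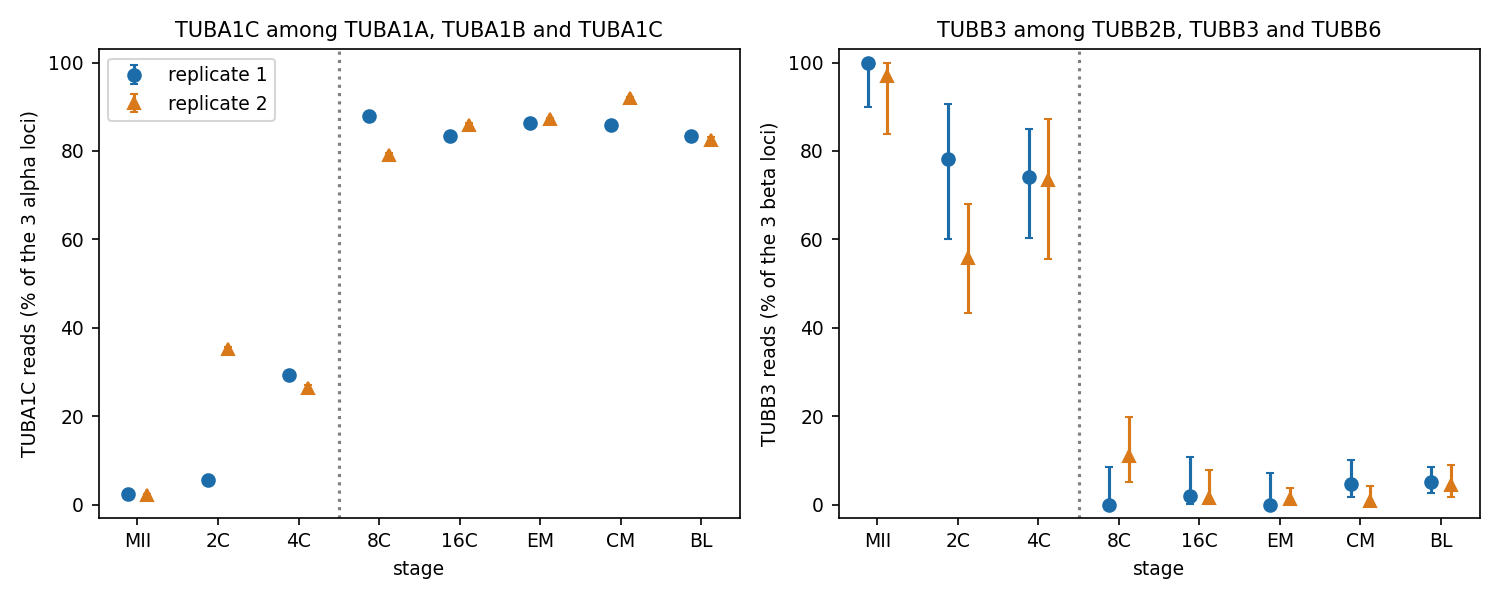
Share of TUBA1C in the reads of TUBA1A, TUBA1B and TUBA1C (left, %) and of TUBB3 in the reads of TUBB2B, TUBB3 and TUBB6 (right, %) in each sample by stage, with exact 95% binomial intervals and a dotted line at genome activation. TUBA1C lies between 2.09% and 35.2% before EGA and between 79.1% and 92.1% after it, and TUBB3 between 55.9% and 100% before and between 0% and 11.0% after.

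The beta tubulin TUBB2B (XLOC_039768), best known from the developing brain, was almost without reads in oocytes and highest in blastocysts. In MII oocytes it had 0 reads and 1 read, and the values were 4.75 and 9.49 normalised reads at 2C and 12.9 and 7.31 at 4C. After EGA it held 73.9 and 83.7 at 8C, 52.3 and 107 at 16C, 38.6 and 87.2 at EM, 131 and 124 at CM, and 248 and 239 at BL. The groups before and after EGA did not overlap. The BL mean of 243 ± 5.86 (SD, n = 2) was 24.1 times the 4C mean of 10.1 ± 3.96 (SD, n = 2), and BL was apart from all other stages. CM was apart from the stages below it as deposited, but in CPM its 94.2 and 121 overlapped EM and 16C. In the order of means below them, 16C, 8C and EM overlapped as neighbours, and so did 4C and 2C. In CPM the BL mean was 30.2 times the 4C mean, and EM came before 16C and 8C.

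TUBB3 (XLOC_023841), the class III beta tubulin used as a marker of neurons, had few reads and was highest before EGA. It held 32.3 and 33.0 normalised reads in MII oocytes, 19.8 and 13.9 at 2C, and 36.9 and 20.3 at 4C. At 8C replicate 1 had no read, which allows up to 5.40 normalised reads there, and replicate 2 held 10.3. The later values were 1.09 and 1.62 at 16C, 0 and 1.17 at EM, 6.65 and 0.938 at CM, and 13.2 and 11.1 at BL. All 10 samples after EGA lay below all 6 samples before it, although the highest of them, 13.2 in BL replicate 1, was close to the lowest before it, 13.9 in 2C replicate 2. In CPM these samples changed places, with 12.8 in BL replicate 1 and 11.2 in 2C replicate 2, and 9 of the 10 samples lay below all earlier ones. After EGA the blastocysts were highest and did not overlap the next stage, 8C. The gap was narrow, with 11.1 from 7 reads in BL replicate 2 and 10.3 from 9 reads in 8C replicate 2.

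Of the reads of the 3 beta tubulin loci, TUBB3 took 100% and 96.9% in MII oocytes, 78.1% and 55.9% at 2C, and 74.1% and 73.5% at 4C. After EGA it took between 0% and 11.0%, the highest being 8C replicate 2. These shares rest on 32 to 257 reads of the 3 loci per sample, and the 0 of 41 reads in 8C replicate 1 allows a share of up to 7.32% by the floor of 3 reads and up to 8.60% by the exact 95% interval. The sum of the 3 beta loci was 32.3 ± 9.34 normalised reads (SD, n = 6) before EGA and 124 ± 76.0 (SD, n = 10) after it.

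TUBB6 (XLOC_041342), a class V beta tubulin, had 10 reads in 4 samples and at most 4 in any of them. TUBG1 (XLOC_044721), the gamma tubulin found in dividing cells, had 1 read in all, in EM replicate 1. Neither could be tested. The deposited data list the beta tubulins TUBB and TUBB4B at 0 in every sample, and both lie in a run of 2578 consecutive locus numbers that are all at 0, so the beta tubulin reads given here cover only part of the family. In the RefSeq assembly TUBB2B lies next to TUBB2A, and 1 annotated gene lies between TUBG1 and TUBG2.

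The first comparison asked whether levels differed among the 8 stages. TUBA1C aside, all 4 members that could be tested had a stage effect by limma on log2(normalised read count + 1), with adjusted p = 2.9e-06 for TUBB2B, 2.3e-05 for TUBA1B, 0.00315 for TUBA1A and 0.00468 for TUBB3. Of all 9670 loci tested, 66.7% had one.

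Comparing the 10 samples after EGA with the 6 before it, 2 of the 4 tested members were higher and 2 were lower. TUBB2B rose by 4.37 on the log2 scale (SE 0.54, adjusted p = 4.2e-07 from limma) from a mean of 5.92 ± 4.97 to 118 ± 71.9 normalised reads. TUBA1B rose by 2.90 (SE 0.66, adjusted p = 5.6e-04 from limma) from 19.4 ± 19.2 to 77.8 ± 27.2 (SD). The size for TUBA1B depended on the model and on 1 oocyte, being 1.81 in edgeR (adjusted p = 0.0181), 2.00 in DESeq2 and 2.24 without MII replicate 1. The changes from limma are differences of mean log2(normalised read count + 1), and for genes with few reads they depend on the pseudocount.

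TUBB3 fell by 2.84 on the log2 scale (SE 0.61, adjusted p = 3.2e-04 from limma) from a mean of 26.0 ± 9.22 to 4.61 ± 5.18 normalised reads. TUBA1A fell by 1.96 (SE 0.47, adjusted p = 0.00102 from limma) from 18139 ± 7086 to 4979 ± 2551 (SD). All loci tested in this comparison numbered 6910, of which 36.9% were higher and 29.9% lower after EGA, so calls in both directions were common. The median log2 change of all loci was 0.23 as deposited and 0.67 when samples were scaled by total reads. Under that scaling TUBA1A changed by -1.47 and TUBB3 by -2.45 and kept their direction. TUBB3 was past the threshold in all alternatives run for this comparison, with changes from -3.19 to -1.81, the smallest with a pseudocount of 5.

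Without both 8C samples, which the choice of TUBA1C had used, 8 samples after EGA remained. TUBA1C was then higher after EGA by 3.61 on the log2 scale (SE 0.64, 95% interval 2.27 to 4.95, adjusted p = 6.3e-05 from limma), and 36.5% of all loci were higher in this fit. TUBB2B, TUBA1B, TUBA1A and TUBB3 also passed the threshold in the same direction as with all samples.

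The step over genome activation itself is 8C against 4C, which shares its samples with the comparison above. TUBB2B rose by 2.89 on the log2 scale (SE 0.63, adjusted p = 0.00300 from limma), and its 8C mean was 7.79 times its 4C mean. TUBB3 fell by 3.08 (SE 1.01, adjusted p = 0.0274 from limma), with changes from -4.83 to -1.33 over all alternatives, but this call was lost under 6 of them. It was not past the threshold in edgeR (adjusted p = 0.128), in DESeq2 (adjusted p = 0.115) and in limma on only the 2 stages (adjusted p = 0.132). Without 8C replicate 1, which had no read, the change was -1.33 (adjusted p = 0.315 from limma), and the adjusted p was 0.153 and 0.0692 without 4C replicate 1 and 2. Oocyte markers, mainly H1FOO, summed to 37.8 in 8C replicate 1 and to 1746 in 8C replicate 2, and their part in the result was not tested.

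TUBA1A and TUBA1B did not pass the threshold in this step, with changes of -0.88 (95% interval -2.31 to 0.55, adjusted p = 0.317 from limma) and 0.94 (-0.44 to 2.31, adjusted p = 0.268). The count from limma was thus 1 of 4 members higher and 1 lower, the latter lost as above, against 17.7% and 19.1% of all loci. The 3560 calls over all loci fell to 2042 and 1993 without 4C replicate 1 and 2.

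Between the oocyte and the 4-cell stage, before EGA, 3 of 5 tested members rose and none fell, against 6.48% and 2.19% of all loci. That background rests on 839 calls, where edgeR made 398 and limma 96 without MII replicate 2, 29 without 4C replicate 1 and 38 without 4C replicate 2. TUBA1B rose by 4.90 on the log2 scale (SE 0.65, adjusted p = 0.00162 from limma). The part of misassigned reads was not tested, and at 4C TUBA1B held 0.201% and 0.223% of the reads of TUBA1A, TUBA1B and TUBA1C. Its 98 reads at 4C against 1 in MII give a ratio of 85.6 with a counting interval of 15.0 to 3417, and the ratio of mean CPM was 145. TUBA1C rose by 3.29 (SE 0.76, adjusted p = 0.0184 from limma), and its 4C mean was 9.71 times its MII mean, or 16.3 times in CPM. TUBB2B rose by 2.90 (SE 0.63, adjusted p = 0.0149 from limma), with 23 reads at 4C against 1 in MII and a ratio of 20.1 (counting interval 3.26 to 828), or 34.8 for mean CPM.

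Over all alternatives run for this step the change of TUBA1B lay between 3.09 and 6.40 and that of TUBB2B between 1.43 and 4.34, the lowest in both cases with a pseudocount of 5. The calls of TUBA1C and TUBB2B depended on single samples. Leaving out any of the 4 samples compared gave TUBA1C changes between 3.10 and 3.48, with adjusted p between 0.0592 and 0.157 from limma. For TUBB2B the adjusted p was 0.0607 without MII replicate 1, 0.134 without 4C replicate 1 and 0.0711 without 4C replicate 2. TUBA1A changed by -0.82 (SE 0.67, adjusted p = 0.482 from limma) and TUBB3 by -0.24 (SE 1.01, adjusted p = 0.954), and neither passed the threshold. The change of TUBA1A lay between -0.95 and -0.054 over all alternatives. Its 4C mean was 0.564 times its MII mean as deposited and 0.948 times in CPM. The median log2 change of all loci in this step was 0.15 as deposited and 0.68 scaled by total reads.

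In blastocysts against compact morulae, the stage at which the first epithelium has formed, limma called 0 of 5 members, 0 of them at an unadjusted p under 0.05, and edgeR and DESeq2 also called 0. The changes were 1.77 for TUBB3 (95% interval -0.39 to 3.92), 0.93 for TUBB2B (-0.42 to 2.28) and 0.58 for TUBA1B (-0.80 to 1.96). They were -0.83 for TUBA1C (-2.44 to 0.78) and -0.06 for TUBA1A (-1.48 to 1.37). Over all alternatives run for this step the change of TUBA1C lay between -1.57 and -0.088 and that of TUBB3 between 0.776 and 2.76. For TUBB2B, TUBA1B and TUBB3 both BL samples lay above both CM samples, but how many of all loci did so was not counted. Of all loci 2.92% were higher and 1.5% lower, from 427 calls that fell to 154 in edgeR, and in limma to 144 without CM replicate 2, 277 without BL replicate 1 and 134 without BL replicate 2. The 8 trophectoderm and epithelium markers summed to 1177 and 1210.3 in blastocysts and to 94.8 and 215 in compact morulae, and their part in these values was not tested. The sum was carried by the keratins KRT8 and KRT18 and by GATA3, while TEAD4 and AQP3 were lower in both BL samples than in both CM samples and CDX2 was listed at 0 in all 4.

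**Figure D3:**
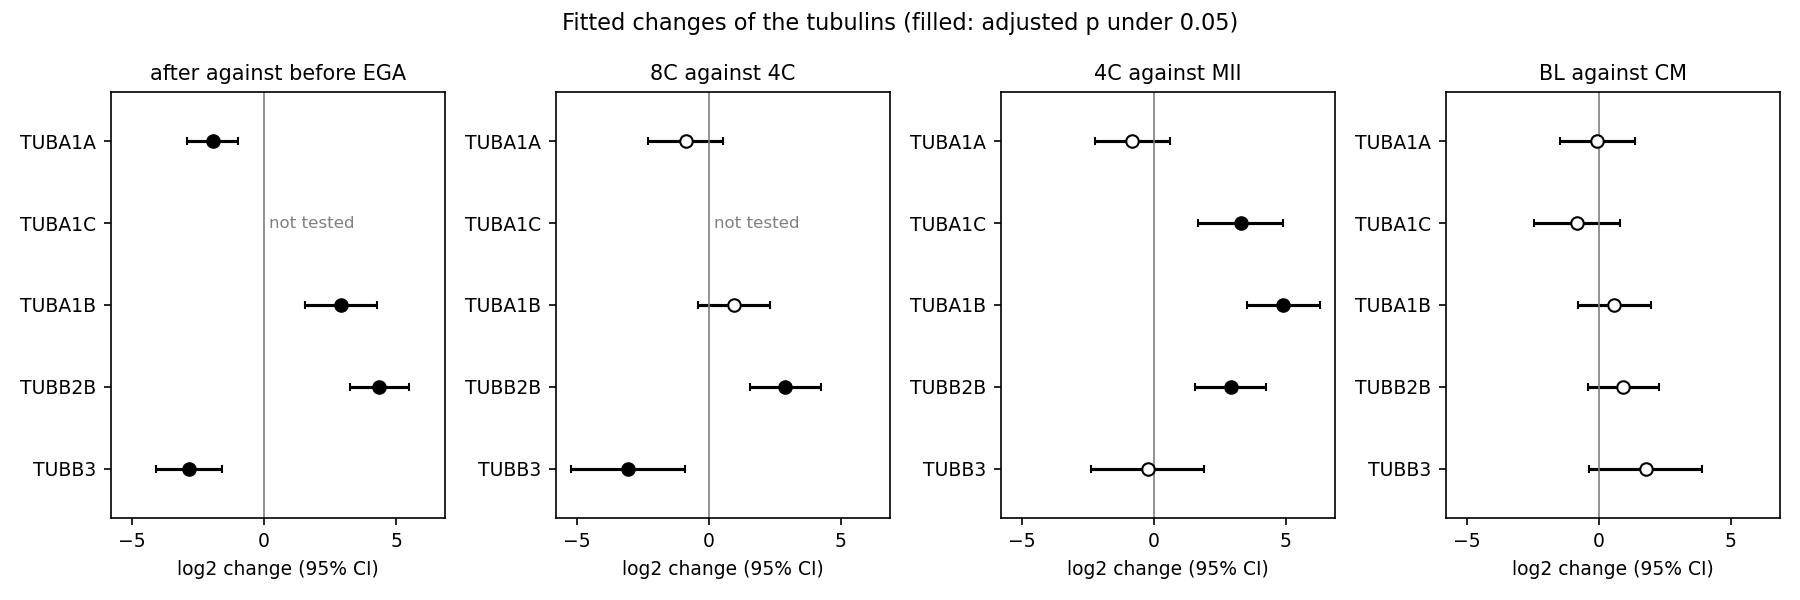
Fitted log2 changes of TUBA1A, TUBA1C, TUBA1B, TUBB2B and TUBB3 with 95% confidence intervals in 4 comparisons from limma, where filled points passed an adjusted p of 0.05 and TUBA1C is left out where the 8-cell samples are compared. After EGA 2 genes are higher and 2 lower, 4C against MII has 3 higher, and BL against CM has none past the threshold.

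The genes whose levels ran most like the 3 tubulins with the highest means were looked up among 9084 named loci by Pearson's r of log2 values over the 16 samples. Closest to TUBA1C were ASAP2 (r = 0.962), LOC100852258 (0.962) and RIIAD1 (0.959), and closest to TUBA1A were LOC100849282 (0.938), C18H16orf46 (0.934) and SLC35D1 (0.931). TUBB2B was most like ATP5G1 (0.977), POU5F1 (0.973), the gene for the pluripotency factor OCT4, and the translation elongation factor EEF2 (0.973). The samples share the order of stages, amplification and depth, and such values describe these 16 samples only.

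Other genes of the microtubule system were counted in 5 lists. Of 16 further tubulins, 13 were found and 3 could be tested, with 0 higher and 2 lower after EGA. Their median log2 change was -4.51, against 0.23 over all loci, of which 36.9% were higher and 29.9% lower. TUBG2, the second gamma tubulin, held 102 to 207 normalised reads before EGA and 0 to 91.8 after it (log2 change -4.86, SE 0.71, adjusted p = 4.4e-06 from limma). Its highest value after EGA was in 8C replicate 2 and its value in 8C replicate 1 was 0. TUBE1, the epsilon tubulin of centrioles, held 42.5 to 179 before and 0 to 19.5 after (-4.51, SE 0.54, adjusted p = 3.3e-07 from limma). Delta tubulin, TUBD1, did not pass the threshold and had means of 18.5 before and 16.7 after.

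Newly made tubulin is folded by prefoldin, a chaperonin and the cofactors TBCA to TBCE. The list of 15 genes also holds TBCK, a kinase with a Rab GTPase-activating domain that is not such a cofactor and had too few reads to test at EGA. Of the 15, 11 could be tested, with 3 higher, 5 lower and a median log2 change of -1.01, against 36.9% higher and 29.9% lower over all loci. PDCL3, a partner of the chaperonin, rose from 0 to 4.87 normalised reads before EGA to 10.8 to 36.6 after it (2.93, SE 0.43, adjusted p = 3.8e-06 from limma). TBCE, a cofactor that acts on alpha tubulin, fell from 76.3 to 279 before EGA to 6.57 to 74.5 after it (-2.70, SE 0.47, adjusted p = 3.9e-05 from limma). The other calls, named after their values were seen, were PFDN6 (1.95) and TBCA (0.99), which rose, and TBCEL (-2.25), TBCD (-1.84), TBCC (-1.47) and PFDN4 (-1.22), which fell. With single samples left out, 2 to 3 of these genes were higher and 4 to 6 lower.

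The gamma tubulin ring and its partners, which start microtubules, gave 8 tested genes of 16 found, with 2 higher, 2 lower and a median of 0.57, beside the same 36.9% and 29.9% of all loci. NEDD1, which anchors the ring at the spindle, fell from 13.8 to 58.5 normalised reads before EGA to 0 to 7.92 after it (-2.94, SE 0.48, adjusted p = 1.9e-05 from limma). Named after their values were seen, HAUS5 (2.67) and CDK5RAP2 (2.61) rose and HAUS6 (-2.42) fell. HAUS5 and HAUS6 belong to the augmin complex, which branches spindle microtubules, and CDK5RAP2 recruits the ring to centrosomes.

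Of the 22 enzymes that modify tubulin found in the data, 4 had enough reads to test, with 2 higher, 1 lower and a median of 0.37 (36.9% higher and 29.9% lower over all loci). HDAC6, which removes acetyl groups from alpha tubulin, rose from 0 to 0.922 normalised reads before EGA to 6.53 to 20.7 after it (3.32, SE 0.39, adjusted p = 2.4e-07 from limma). All its values before EGA lay under the detection floor, so the size depends on the pseudocount. The study itself gives HDAC6, in TPM, a higher mean at the 2-cell than at the 8-cell stage. AGBL2, a carboxypeptidase of tubulin tails, fell from 40.6 to 158 before EGA to 0 to 17.2 after it (-5.32, SE 0.59, adjusted p = 1.1e-07 from limma). TTLL12, a member of the tubulin tyrosine ligase family named after its value was seen, rose by 1.79. With single samples left out, 1 to 2 were higher and 1 to 2 lower.

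Of 25 genes for growth, shrinkage and severing of microtubules 16 could be tested, with 4 higher, 8 lower and a median of -0.85, and all loci again gave 36.9% and 29.9%. The end binding protein MAPRE2 fell from 81.2 to 206 normalised reads to 0 to 9.18 (-4.89, SE 0.52, adjusted p = 6.2e-08 from limma). KIF18A, a kinesin that limits microtubule length at chromosomes, fell from 81.2 to 300.0 to 0 to 12.9 (-4.84, SE 0.52, adjusted p = 7.2e-08 from limma). The katanin-like severing subunit KATNAL1 fell by 3.60 and the end binding protein MAPRE1 by 2.99 on the log2 scale.

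Named after their values were seen, TACC3 (-2.44), the polymerase CKAP5 (-1.92), the spindle assembly factor TPX2 (-1.64) and the severing enzyme SPAST (-1.47) also fell. CLASP1 (2.15), the depolymerising kinesin KIF2C (1.63), the stabilising protein MAP4 (1.39) and CLIP1 (1.04) rose. The number of higher genes moved between 2 and 5 with single samples left out, and 8 were lower in each of these fits.

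**Figure D4:**
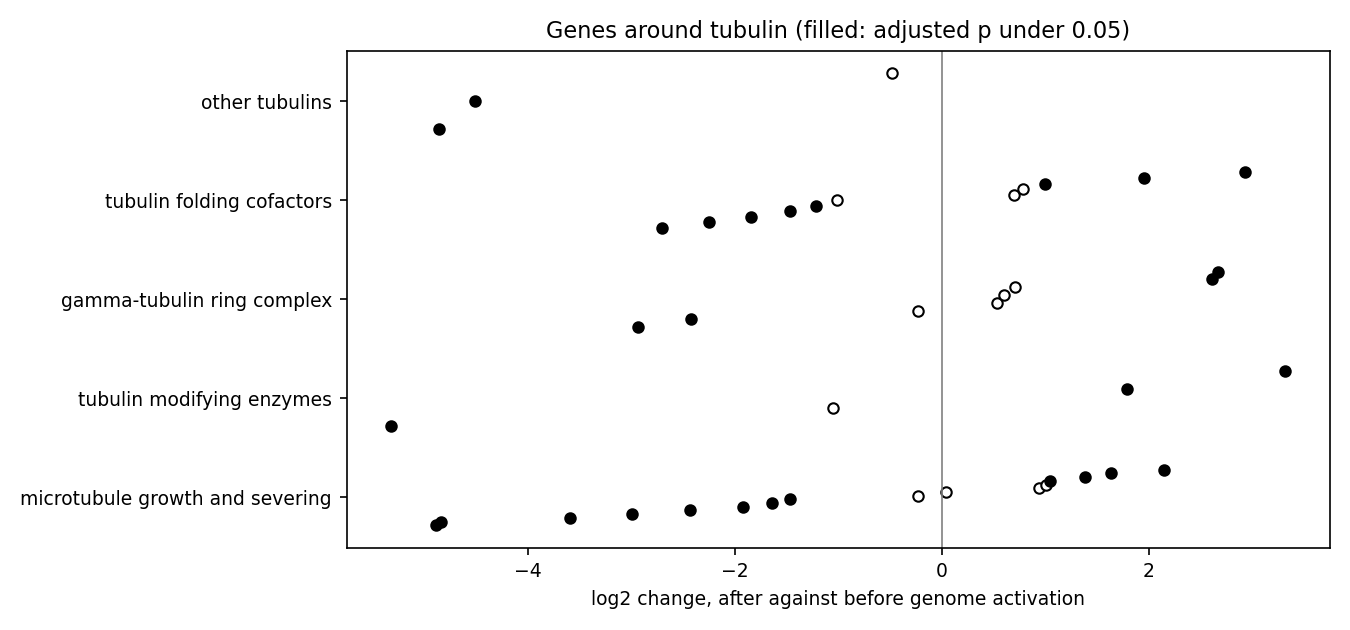
Log2 change after against before EGA of each tested gene in 5 lists of the microtubule system, where each point is 1 gene, filled points passed an adjusted p of 0.05 in limma and vertical offsets only separate points. Both called genes among the other tubulins are lower, at -4.86 and -4.51, and the other lists hold genes on both sides of 0.

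From 4C to 8C, limma called 17 of 55 tested genes of the lists, or 30.9%, against 36.8% of all loci. Of the 55, 5.45% were higher and 25.5% lower, against 17.7% and 19.1% of all loci. It called TUBE1 (-3.44) among the other tubulins and TBCEL (-3.49), TBCE (-2.91) and TBCK in the cofactor list, all lower, and without TBCK 2 of 12 cofactors were called. In the ring complex list CDK5RAP2 (3.16) was higher, and HAUS6 (-3.69), NEDD1 (-3.57) and TUBGCP5 were lower. HDAC6 (2.25), under the detection floor at 4C, was higher and AGBL2 (-3.43) and TTLL9 were lower among the modifying enzymes. MAP4 (2.22) was higher and KIF18A (-4.55), KATNAL1 (-4.13), MAPRE2 (-4.08), TACC3 (-3.73) and MAPRE1 (-2.11) were lower among the growth and severing genes. TBCK, TUBGCP5 and TTLL9 were listed at 0 in both 8C embryos, so no size is given for them. These genes were named after their values were seen.

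From MII to 4C, 6 of 55 tested genes of the lists were called, or 10.9%, against 8.68% of all loci, so their share was near the background. PFDN1 (3.04), a prefoldin subunit, and KIF2A (2.85), a depolymerising kinesin, rose. TUBGCP4 (-3.22), a subunit of the ring complex, HAUS4 (-3.65) and MAP4 (-2.63) fell, with adjusted p = 0.0292, 0.0467 and 0.0460 from limma. HAUS4 held 0 and 1.62 normalised reads at 4C, under the detection floor, so its size depends on the pseudocount. The number of calls over all loci in this step depended on single samples, as given above. TTLL9, a glutamylase of cilia, was listed at 0 in both MII oocytes and in both 8C embryos and held 34.9 and 38.7 normalised reads at 4C, and limma called it in both steps. From CM to BL 2 of 55 genes, or 3.64%, were called, against 4.42% of all loci. HAUS5 rose from 4.69 and 12.2 to 79.1 and 91.9 normalised reads (3.32, adjusted p = 0.0203 from limma). STMN1, the gene for stathmin, which binds tubulin dimers, rose from 3.75 and 5.54 to 72.0 and 79.2 (3.78, adjusted p = 0.0132 from limma). These genes, too, were named after their values were seen.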

How the data were processed

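The authors isolated RNA of single oocytes and embryos with TRIzol, amplified it in 2 rounds and sequenced it on SOLiD. The submitters' processing notes name cutadapt, FastQC, TopHat, Cufflinks and HTSeq. The genome build and the rule for reads matching several places are not given in the sources used here. The deposited signal is a count per locus that the authors divided by a size factor per sample. Dividing by the smallest step of a sample turned 100% of its values above 0 into whole reads, within 0.01 reads, and these recovered reads were used where reads are given.

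The main test, on log2(deposited value + 1), was limma 3.58.1 (R 4.3.3) with variances moderated along a trend, after edgeR's filterByExpr on the reads, with Benjamini-Hochberg adjustment over all loci at 0.05. The model of 8 stages gave the stage effect and the contrasts between stages (9670 loci), and a model of 2 periods the EGA comparison (6910 loci). The edgeR 4.0.16 test on the recovered reads called 4393 loci in the EGA comparison and limma 4619. DESeq2 1.42.0, other scalings, pseudocounts, no filter, a replicate block and left-out samples were alternatives. A separate limma fit of the same kind, scaled by total reads, was run on simulated counts. It does not test the other steps. Tables and exact intervals were computed in Python 3.11.15 with scipy 1.17.1.

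The members and lists were chosen with earlier results of these data known. By rule, all members were named, and from each list up to 4 genes with the largest change at EGA among those past the threshold whose groups do not overlap. For the 3 tubulins with the highest means, the 3 named loci of highest Pearson's r were added. Other genes were named after their values were seen. RefSeq names come from assembly ARS-UCD2.0, and neighbours from the order of gene starts in it. Its coordinates were not matched to the deposited loci.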

Additional observations from a re-analysis of the deposited data

How the results depend on the processing

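Of 572 alternative values for 22 member results, 551 kept direction and side of the threshold, 14 were no longer past it and 7 changed sign. The sign changes were of values not past the threshold. TUBB3 in 4C against MII was 0.49 under both scalings by total reads (with and without TUBA1C), 0.17 without 4C replicate 2, and -0.66 to 0.17 over all left-out samples. TUBA1A in BL against CM was 0.12 scaled by total reads, 0.10 scaled by total reads without TUBA1C, 0.23 without CM replicate 2, and -0.53 to 0.42 over all left-out samples, the latter without BL replicate 2. In 8C against 4C, edgeR, DESeq2 and a fit of only the 2 stages each called 1 tubulin in place of 2, losing TUBB3, and left-out samples gave 1 to 2. In 4C against MII, left-out samples gave 1 to 3 tubulins, against 3. With a pseudocount of 5, TUBB2B in that step was no longer past the threshold (log2 change 1.43, adjusted p = 0.0850 from limma). The cause was not tested.

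Over all loci, no filter gave 7075 calls in the EGA comparison against 4619, with more loci tested. In 8C against 4C (3560), the 2 stages alone gave 1952, with fewer samples, and left-out samples 1993 to 3707. In 4C against MII (839), edgeR gave 398 and left-out samples 29 to 1187. In BL against CM (427), edgeR gave 154 and left-out samples 134 to 623. Only 1 sample of a stage then remained and was assumed to vary like the other stages. Summing loci of a name gave no other value, since each member has 1 locus.

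The replicate numbers did not pair the samples: deviations of same-numbered samples correlated by over 0.1 in 1 of 28 pairs of stages (r from -0.28 to 0.14). With the replicate block, 6381, 4579, 3515, 754 and 392 loci were called for the stage effect, EGA, 8C against 4C, 4C against MII and BL against CM, and no tubulin call changed. Precision is lowest for TUBA4A, TUBB6 and TUBG1, with at most 4 reads in any sample, and for TUBA1B and TUBB2B in MII, with 1 read in all.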
